A study of Homo sapiens with 12 samples.

Results

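The response to CPT (calcipotriol) in epigenetically primed cells was measured by RNA-seq in 6 of 12 MiaPaca2 libraries, as CPT+GTA+5-Aza against GTA+5-Aza across all genes. MiaPaca2 is an established human pancreatic ductal adenocarcinoma (PDAC) cell line. The 3 GTA+5-Aza libraries came from cells given GTA at 2 mM and 5-Aza at 1 µM, and the 3 CPT+GTA+5-Aza libraries from cells given the same 2 agents together with CPT at 1 µM. The unprimed groups, used here to set the primed response against, were Con (DMSO) and CPT at 1 µM, with 3 libraries each. They also entered the shared fit, and so the gene filter and the estimate of spread behind the P values in primed cells. Every group was treated for 24 h, and all libraries came from this 1 wild-type line, so that P values measure the spread between these libraries, which may be technical. The comparison asks which genes differ when CPT is added to GTA and 5-Aza, and the order in which the agents were given is not stated in the sources used here.

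Calcipotriol is a synthetic analog of the active form of Vitamin D. It binds the Vitamin D receptor VDR, which pairs with a retinoid X receptor such as RXRA and binds DNA at paired hexamer half-sites, and CYP24A1, the enzyme that degrades active Vitamin D, is the classical gene switched on in this way. GTA (glyceryl triacetate) supplies acetate for acetyl-CoA and histone acetylation, and 5-Aza (5-Aza-2′-deoxycytidine) inhibits the enzymes that methylate DNA.

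Few genes differed with CPT in primed cells, and none passed correction for multiple tests. The study's methods ask that the fold change be significantly above 1.5 at a P under 0.05, without saying whether P was adjusted. Here these thresholds were applied to the estimated fold change and the unadjusted P. By these thresholds 59 of 17123 genes were higher with CPT (0.345%) and 113 lower (0.660%) in edgeR's quasi-likelihood test, or 172 genes in all (1.00%). After Benjamini-Hochberg adjustment 0 genes had an adjusted p under 0.05, and the smallest was 0.542. Whatever their fold change, 464 genes (2.71%) had an unadjusted P under 0.05, of which 186 were higher (1.09%) and 278 lower (1.62%), and 83 had a P under 0.01. The libraries of the groups did not overlap for 1567 genes (9.15%). The median log2 fold change over all genes was 0.00, with 50.5% of genes higher and 49.5% lower. Other settings of the test gave 0 to 4 genes after adjustment (edgeR's likelihood ratio test 3, DESeq2 1). A fit of the 2 primed groups alone gave 2, and 659 of its 16236 genes had an unadjusted P under 0.05. The methods can also be read as a test against a 1.5-fold change (edgeR's glmTreat), which gave 64 genes (20 higher, 44 lower).

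As whole profiles, the distances between primed libraries with and without CPT fell in the range of the distances between replicates. Over genes above 10 CPM (counts scaled by edgeR to a common library size), the root mean square difference in log2 CPM was 0.157 to 0.181 for the 9 pairs of a GTA+5-Aza and a CPT+GTA+5-Aza library. It was 0.171 to 0.202 within GTA+5-Aza and 0.155 to 0.166 within CPT+GTA+5-Aza, so that the median between the groups (0.173) lay above every distance within CPT+GTA+5-Aza and below the highest within GTA+5-Aza. Primed and unprimed libraries differed by 0.279 to 0.385.

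The primed libraries were alike in depth and RNA composition. The total count was 17527797 to 19705638 in GTA+5-Aza and 16162490 to 18676151 in CPT+GTA+5-Aza, and the share of counts from mitochondrial genes was 4.44 to 4.85% and 4.51 to 4.64%. Of the ductal epithelial markers, KRT8 (1690 ± 74.7 CPM without and 1650 ± 59.2 CPM with CPT, SD, n = 3), KRT19 and SOX9 were well detected, KRT7 was near 2 CPM (2.02 and 1.98 CPM), and EPCAM had 0 counts in GTA+5-Aza and 1 count in 1 CPT+GTA+5-Aza library. The summed CPM of the acinar and endocrine lists was at most 0.122 in any primed library, that of the leukocyte list at most 1.86 and that of the endothelial list at most 1.53.

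The genes that met the thresholds were mostly scarce transcripts. Their median level was 1.39 CPM against 16.1 CPM for all genes tested, and 1 of the 172, SMN1, was above 10 CPM. Among the 2365 genes under 1 CPM the median standard error of the log2 fold change was 0.696, so that the width to each side of a 95% interval corresponds to a fold change of 2.57. Among the 2306 genes above 100 CPM it was 0.065, or a fold change of 1.09. The share of genes with an unadjusted P under 0.05 was 3.09% below 1 CPM and 1.52% above 100 CPM. Protein-coding genes made up 51.2% of the 172 and 72.2% of all genes tested, and lncRNAs 25.0% and 16.6%.

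**Figure D1:**
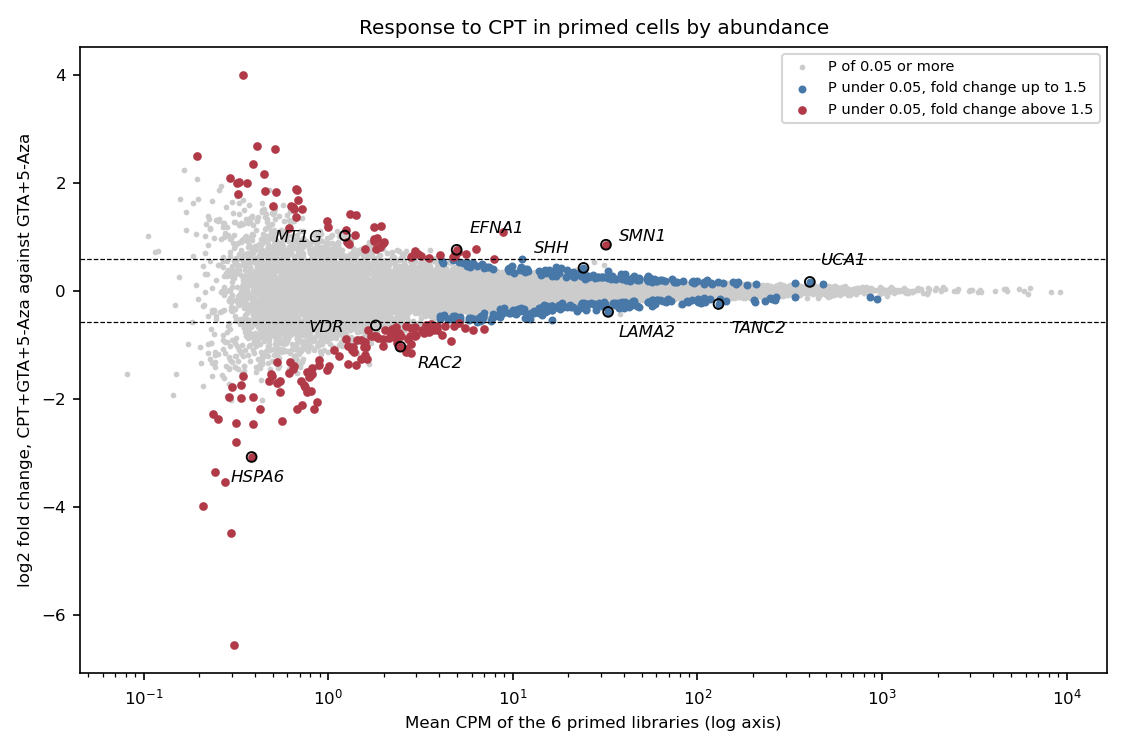
Mean CPM of the 6 primed libraries (log axis) against the log2 fold change of CPT+GTA+5-Aza over GTA+5-Aza, 1 point a gene, with dashed lines at a fold change of 1.5. Points past both thresholds (red, 172 genes) lie almost all below 10 CPM, where SMN1 is the exception, and genes with an unadjusted P under 0.05 above 10 CPM (blue) stay within the dashed lines.

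Neither VDR nor RXRA was higher with CPT in primed cells. VDR (ENSG00000111424, chr12:47841537-47943048, minus strand) had 29, 53 and 43 counts in the GTA+5-Aza libraries and 28, 27 and 20 in the CPT+GTA+5-Aza libraries, or 1.55, 2.65 and 2.43 CPM against 1.48, 1.53 and 1.23 CPM. The groups did not overlap, although GTA+5-Aza replicate 1 lay close to the CPT+GTA+5-Aza libraries. The log2 fold change of VDR was -0.64 (SE 0.367, unadjusted P = 0.0917), with a 95% interval of -1.40 to 0.11, so that a rise of VDR mRNA beyond that bound was outside the interval. RXRA, its partner in DNA binding, had 94.6 ± 9.87 CPM without and 88.8 ± 5.01 CPM with CPT (log2 fold change -0.09, interval -0.26 to 0.07).

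Of the 20 genes of the Vitamin D machinery (receptors, coregulators and the enzymes and carriers of the hormone), 16 were tested. With CPT 6 of them lay above and 10 below the level without it, and the median of their log2 fold changes was -0.03. CUBN, an endocytic receptor that takes up the Vitamin D binding protein in the kidney, was the 1 gene with an unadjusted P under 0.05, at 259 ± 2.85 CPM without and 236 ± 6.42 CPM with CPT (log2 fold change -0.13, unadjusted P = 0.0464). That 1 gene of 16 is 6.25%, against 2.71% of all genes. CUBN was lower by the same amount in unprimed cells (-0.13). Among the coregulators, the coactivator NCOA3 had a log2 fold change of -0.11 and the bridging factor SNW1 one of 0.09, and neither reached P under 0.05.

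Of the known Vitamin D target genes, 0 of the 13 tested met the thresholds, where 1.00% of all genes did. CYP24A1 had 0 counts in all GTA+5-Aza libraries and 2, 0 and 0 counts in the CPT+GTA+5-Aza libraries, and 0 in the unprimed libraries. A count of 0 allows up to 3 counts a library, which is 0.15 to 0.184 CPM in the primed libraries and covers counting error alone. Among the 31 listed targets 10 were at 0 in all 6 primed libraries. The tested ones split into 7 higher and 6 lower, and their median log2 fold change was 0.07. The largest difference among these was in DUSP10, a phosphatase of MAP kinases, with 1.16 ± 0.25 CPM without and 2.18 ± 0.502 CPM with CPT (log2 fold change 0.90, unadjusted P = 0.111). CDKN1A, the cell cycle inhibitor p21, had 3.78 ± 1.64 and 4.31 ± 1.21 CPM, and GADD45A had 28.7 ± 5.22 and 30.1 ± 1.01 CPM, both with overlapping libraries. PTHLH, which encodes parathyroid hormone related protein, was below the filter on low counts, with 1, 0 and 0 counts without CPT and 7, 3 and 6 with CPT. In unprimed cells it had 0, 0 and 6 counts in Con and 0, 1 and 0 in CPT.

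MT1G and RAC2 are the genes the study names for CPT in primed cells. MT1G, a zinc-binding metallothionein (ENSG00000125144, chr16:56666730-56668065, minus strand), had 8, 22 and 16 counts without CPT and 42, 18 and 28 with CPT. The libraries of the groups overlapped, and the log2 fold change of 1.02 had an interval of -0.41 to 2.45 (unadjusted P = 0.154). With only the 2 groups in the fit, 1 of 15 other settings, the unadjusted P of MT1G was 0.0402 at a log2 fold change of 1.02, and the highest P was 0.391, without CPT+GTA+5-Aza replicate 1. RAC2, a small GTPase of the cytoskeleton (ENSG00000128340, chr22:37225270-37259594, minus strand), had 46, 86 and 56 counts without and 26, 33 and 26 with CPT, with no overlap of the groups. It met the thresholds (log2 fold change -1.04, SE 0.374, unadjusted P = 0.0101), and without GTA+5-Aza replicate 2, the library with the most RAC2, the unadjusted P was 0.0794.

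**Figure D2:**
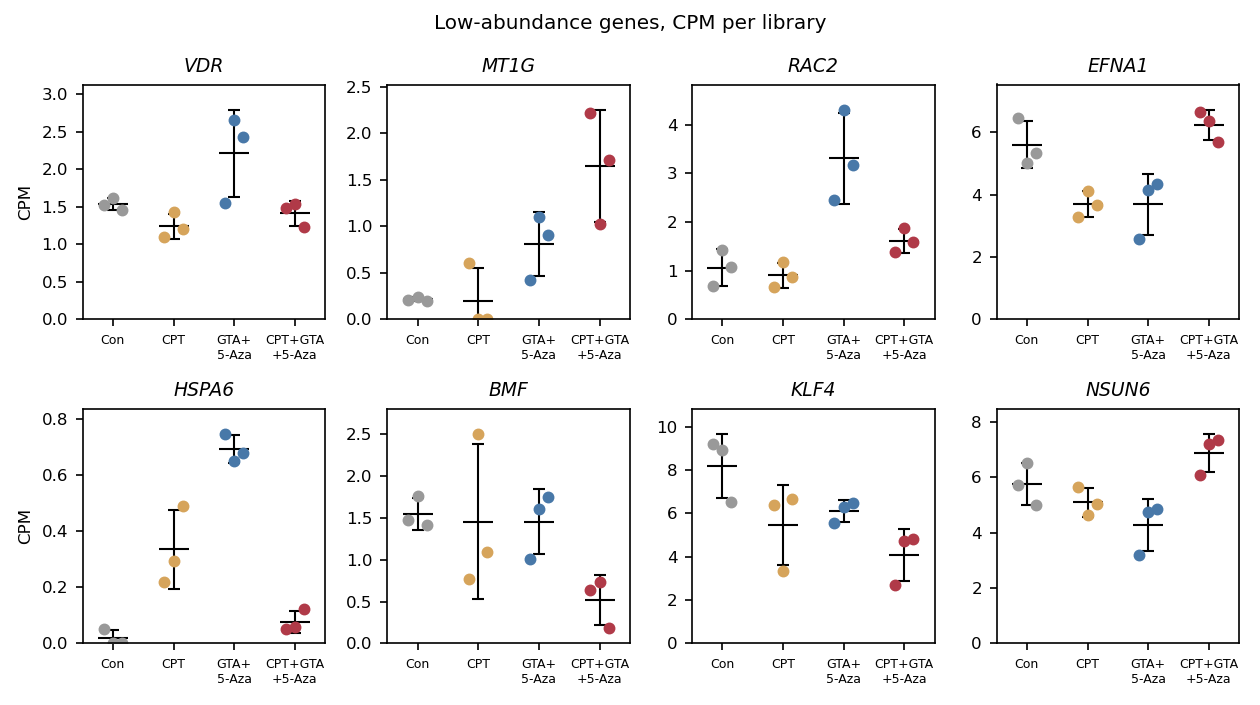
CPM of 8 low-abundance genes in each of the 12 libraries, by group, with the mean (horizontal bar) and SD (whiskers) of 3 libraries. In VDR the GTA+5-Aza libraries are spread from 1.55 to 2.65 CPM, in MT1G the primed groups overlap, and HSPA6 is lowest in Con, highest in GTA+5-Aza and low again in CPT+GTA+5-Aza.

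The well-measured genes with the clearest differences in primed cells were small in effect, and most had the same direction in unprimed cells. Of 9935 genes above 10 CPM, 238 (2.40%) had an unadjusted P under 0.05 in primed cells, 108 of them higher and 130 lower. Their median log2 fold changes were 0.24 and -0.26. Of the 108 higher genes 76 (70.4%) were also higher with CPT in unprimed cells, where 53.6% of all genes above 10 CPM were higher. Of the 130 lower genes 95 (73.1%) were also lower there, against 46.3% of all such genes. The comparisons in primed and unprimed cells share no library. Over all genes above 10 CPM the sign was the same for 55.1%.

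Gene length differed between the higher and the lower genes. Among protein-coding genes above 10 CPM, the median genomic span was 50.3 kb for the lower genes, 27.4 kb for the higher genes and 33.6 kb for all. Among genes up to the median span, 44 of 59 higher genes (74.6%) and 33 of 50 lower genes (66.0%) had the same direction in unprimed cells, against 58.0% and 41.9% of all. Among longer genes these were 31 of 48 (64.6%) and 60 of 78 (76.9%), against 49.4% and 50.6%. In both length classes the shares lay above those of all genes of that class, and no test was run on them.

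Higher with CPT was SHH, the Sonic Hedgehog ligand (chr7:155799980-155812463, minus strand). Its level was 20.8, 19.4 and 21.7 CPM in the GTA+5-Aza libraries and 26.4, 29.0 and 27.6 CPM in the CPT+GTA+5-Aza libraries. All libraries with CPT lay above all without it, in primed and in unprimed cells (14.9, 21.7 and 19.2 CPM in Con, 29.0, 30.5 and 29.8 CPM in CPT). The log2 fold change in primed cells was 0.42 (SE 0.12), under the 1.5-fold threshold.

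UCA1, an lncRNA first described in urothelial cancer (chr19:15828206-15836328, plus strand), had the smallest standard error of the 12 genes above 10 CPM that are named for their P. Its level was 370, 389 and 391 CPM without and 433, 435 and 420 CPM with CPT, with no overlap. The log2 fold change was 0.16 (SE 0.05, unadjusted P = 0.00357), and in unprimed cells it was 0.23 (unadjusted P = 0.00014).

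LAMA2, which encodes the laminin α2 chain of basement membranes (chr6:128883138-129516566, plus strand), was lower with CPT. It had 39.3, 35.9 and 36.6 CPM without and 29.4, 29.6 and 26.2 CPM with CPT. The groups did not overlap, and the log2 fold change was -0.39 (SE 0.10, unadjusted P = 0.000523), the smallest P among the genes above 10 CPM. In unprimed cells LAMA2 was also lower (-0.27, unadjusted P = 0.0084).

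The 250 bases before the annotated starts of LAMA2 and SHH are shown because these genes moved in opposite directions and in both cell states. They are RefSeq sequence on GRCh38.p14, 5′ to 3′ on the strand of the gene, and capitals mark hexamers of the kind VDR and RXR bind.
LAMA2 (chr6:128882888-128883137, plus strand): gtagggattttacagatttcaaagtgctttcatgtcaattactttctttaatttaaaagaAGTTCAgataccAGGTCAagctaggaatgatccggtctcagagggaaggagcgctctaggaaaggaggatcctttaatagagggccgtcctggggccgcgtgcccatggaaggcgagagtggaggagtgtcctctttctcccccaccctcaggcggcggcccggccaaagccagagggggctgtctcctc
SHH (chr7:155812464-155812713, minus strand): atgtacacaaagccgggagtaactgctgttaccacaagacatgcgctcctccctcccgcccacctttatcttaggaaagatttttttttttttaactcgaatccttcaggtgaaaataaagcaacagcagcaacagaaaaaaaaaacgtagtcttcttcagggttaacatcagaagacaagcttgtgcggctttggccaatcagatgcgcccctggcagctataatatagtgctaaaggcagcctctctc

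Both strands were searched for AGGTCA and its variants, which were GGGTCA, then AGTTCA, and last GGTTCA. LAMA2, the gene that was lower, holds 2 of them, which begin 190 and 178 bases before the start, and SHH, the gene that was higher, holds 0. Of all promoter windows of this length 33.8% hold at least 1. Counted by gene, where any window of a gene may hold 1, the share was 38.8% of all genes with a window. The shares that follow are also by gene. Of the genes above 10 CPM the share was 34.7%, of those higher with CPT 39.8% (33 of 83 with a window) and of those lower 38.3% (36 of 94). A match is a match of letters and no sign of binding.

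Other genes above 10 CPM that were lower with CPT differed by less than 1.5-fold. TANC2, a synaptic scaffold protein, had 142, 144 and 138 CPM without and 123, 123 and 111 CPM with CPT (log2 fold change -0.25). PSD3, an exchange factor for an ARF GTPase, had 90.5, 91.4 and 88.4 CPM without and 81.8, 69.9 and 76.0 CPM with CPT (-0.25). SEMA3C, a secreted semaphorin, had 222, 229 and 206 CPM without and 202, 182 and 183 CPM with CPT (-0.21). In these 3 genes every library with CPT lay below every library without it, and in unprimed cells the log2 fold changes were -0.17, -0.19 and -0.11. The myosin pseudogene MYH16 had 17.7, 17.6 and 23.0 CPM without and 14.3, 11.5 and 14.1 CPM with CPT (log2 fold change -0.54, unprimed -0.52). The lncRNA ENSG00000260005 had a mean of 14.6 CPM without and 10.1 CPM with CPT (-0.52, unprimed -0.11).

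KAZN and PDP2 were also higher with CPT above 10 CPM. KAZN, a protein associated with desmosomes, had 12.7, 15.6 and 15.4 CPM without and 17.3, 21.2 and 20.9 CPM with CPT, with no overlap (log2 fold change 0.44, unadjusted P = 0.00261). In unprimed cells its log2 fold change was -0.21, and the difference between the responses had an unadjusted P of 0.00185. PDP2, a phosphatase that activates pyruvate dehydrogenase, had 27.5, 29.9 and 29.0 CPM without and 37.4, 34.0 and 39.4 CPM with CPT (0.36, unprimed 0.08).

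CCZ1B and SMN1 have near-identical copies in the genome that share reads, so their values are uncertain. CCZ1B, a subunit of an exchange factor for RAB7, had 668, 704 and 654 counts without and 901, 770 and 702 with CPT. In CPM these were 35.7, 35.3 and 36.9 without and 47.6, 43.7 and 43.0 with CPT, with no overlap. Summed with its copy CCZ1 the counts were 1470, 1743 and 1470 without and 1860, 1605 and 1614 with CPT. These sums are not scaled for depth, so their overlap does not show that the levels overlapped. SMN1, the survival motor neuron gene, had 380, 537 and 372 counts without and 449, 862 and 831 with CPT, with overlapping groups. Summed with SMN2 these were 486, 670 and 484 without and 560, 931 and 954 with CPT.

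All 12 of these genes above 10 CPM kept an unadjusted P under 0.05 with each of the 6 primed libraries left out in turn. They were chosen for small P values in this comparison, so this is a description of them and not a test.

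**Figure D3:**
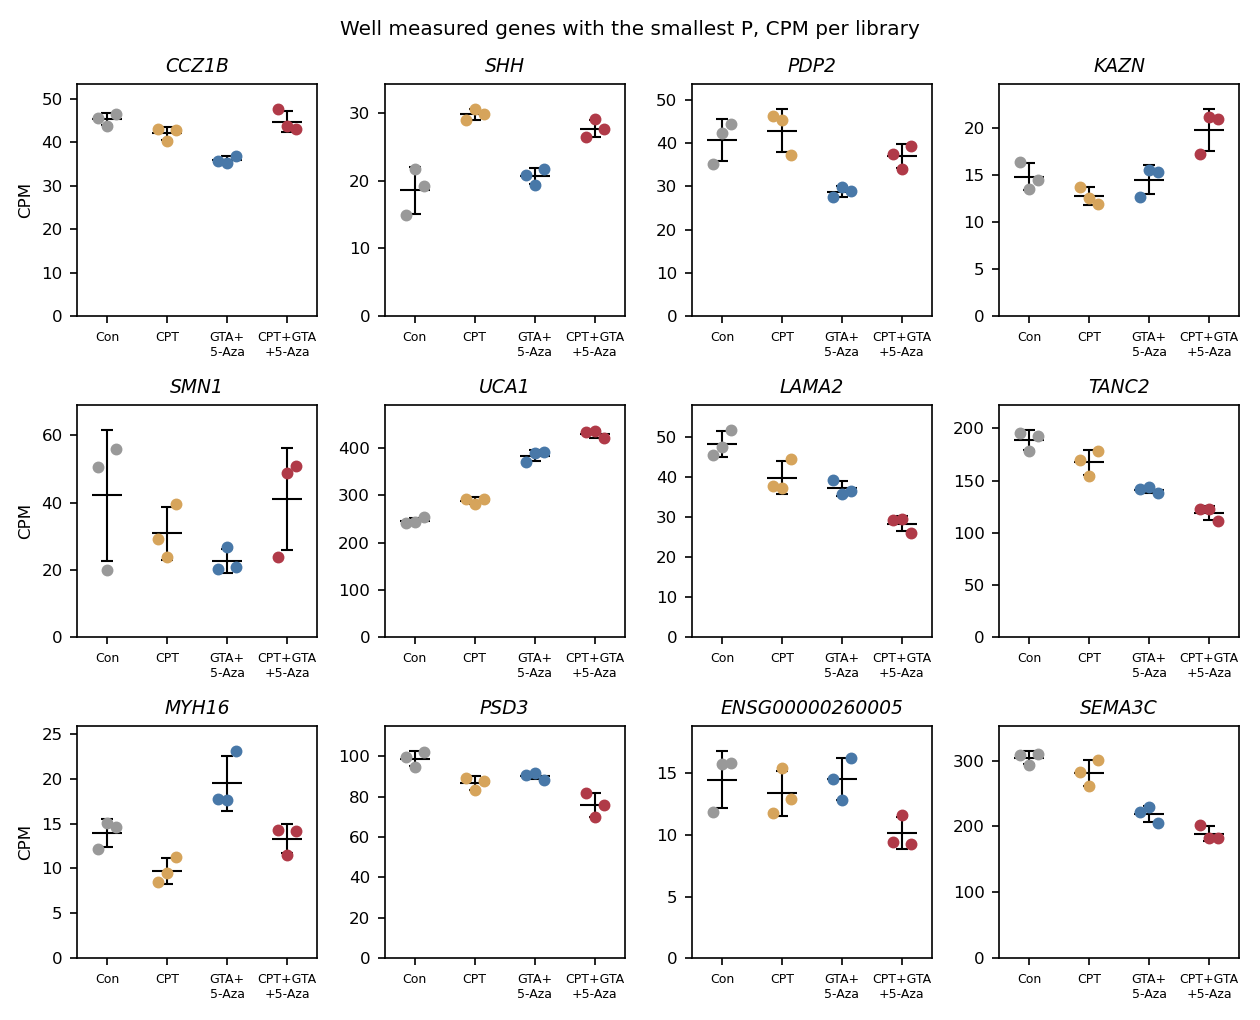
CPM per library of the 6 higher and 6 lower genes with the smallest P among genes above 10 CPM, by group, with the mean (horizontal bar) and SD (whiskers) of 3 libraries. SHH, UCA1, LAMA2, TANC2, PSD3, MYH16 and SEMA3C move the same way from Con to CPT as from GTA+5-Aza to CPT+GTA+5-Aza, and KAZN, CCZ1B and SMN1 do not.

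Whether CPT acted differently in the 2 cell states was tested for each gene as the difference of the log2 fold changes (the interaction). It met the thresholds for 304 genes (1.78%), 160 with a higher and 144 with a lower log2 fold change in primed cells, and 0 genes passed adjustment (smallest adjusted p = 0.540, 451 genes or 2.63% with an unadjusted P under 0.05). Among the 238 well-measured genes with an unadjusted P under 0.05 in primed cells, 39 had an unadjusted P under 0.05 in the interaction. The primed log2 fold change is part of the interaction, so choosing genes by their primed P raises this count by itself. It cannot be set against the 2.63% of all genes and tests nothing. Of the 172 genes that met the thresholds in primed cells, 87 had the same sign in unprimed cells and 85 the opposite one. Just 1 of these 172 was above 10 CPM, and the same-sign share over all genes tested is not given here, so this split has no background beside it. The 26 genes named here that were above 10 CPM with an unadjusted P under 0.05 had the same sign in 22 cases and the opposite sign in 4 (CCZ1B, KAZN, SMN1 and ANKRD16). Over all genes above 10 CPM the sign was the same for 55.1%. The 26 were chosen by P in primed cells, or for ANKRD16 by the interaction, so the count describes them and tests nothing.

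**Figure D4:**
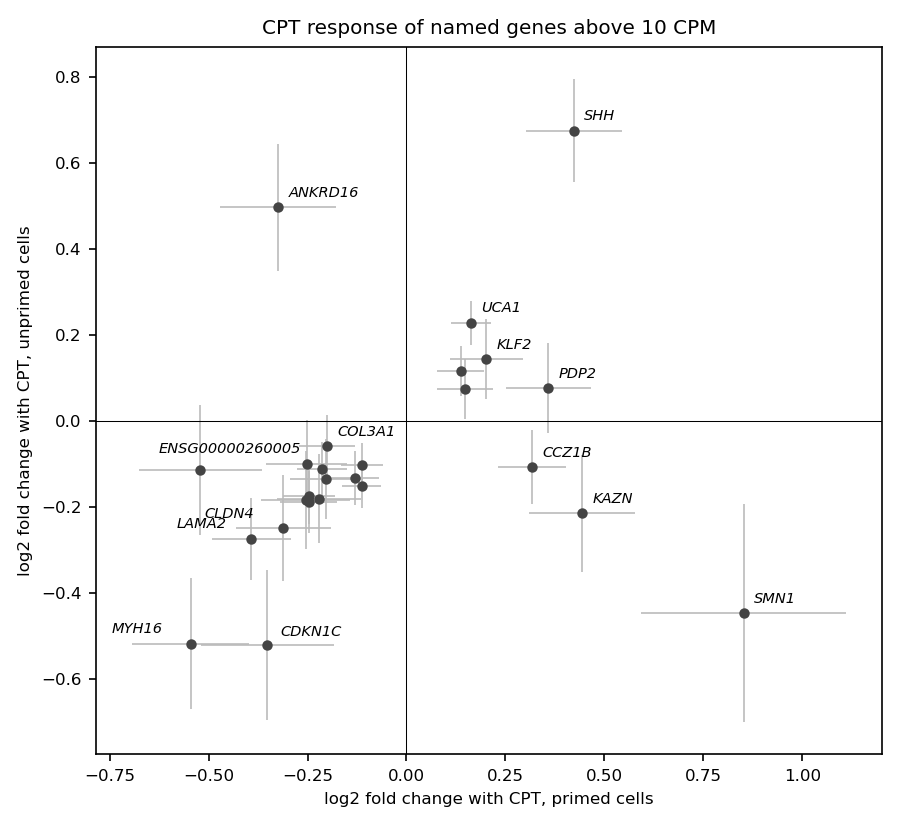
Log2 fold change with CPT in primed cells (x axis) against that in unprimed cells (y axis) for the 26 named genes above 10 CPM with an unadjusted P under 0.05 in primed cells, with SE as bars. 22 genes lie in the lower left and upper right quadrants, with SHH highest, and ANKRD16, CCZ1B, KAZN and SMN1 lie in the other quadrants. The genes were chosen by P, and the sign was the same for 55.1% of all genes above 10 CPM.

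Ranked by the P of the interaction, the first 5 genes were HSPA6, ENSG00000273361, EFNA1, ANKRD16 and UPF3AP3. HSPA6, a stress-inducible HSP70 chaperone (chr1:161524540-161526894, plus strand), had 14, 13 and 12 counts in GTA+5-Aza and 1, 1 and 2 in CPT+GTA+5-Aza. In unprimed cells it had 1, 0 and 0 counts in Con and 4, 6 and 9 in CPT. CPT libraries thus lay above Con in unprimed cells and below GTA+5-Aza in primed cells, with an unadjusted P of 4.4e-05 for the difference (adjusted p = 0.540). HSPA6 passed the filter on low counts through its GTA+5-Aza libraries alone, which favors a fall with CPT in primed cells. Its values and its rank in the interaction are therefore a description and not a test. No fold is given, because 1 group of each pair held 0 to 2 counts a library.

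EFNA1, the membrane-anchored ligand ephrin A1 of Eph receptors (chr1:155127876-155134899, plus strand), had 48, 83 and 77 counts in GTA+5-Aza and 126, 112 and 93 in CPT+GTA+5-Aza, or 3.69 ± 0.979 CPM and 6.24 ± 0.492 CPM. The log2 fold change was 0.76 (SE 0.225, unadjusted P = 0.00233), and no library of the groups overlapped. In unprimed cells the order was the reverse, with 123, 105 and 110 counts in Con and 60, 84 and 67 in CPT (log2 fold change -0.60, unadjusted P = 0.0131). The difference of the log2 fold changes was 1.35 (unadjusted P = 0.000228).

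ANKRD16, an ankyrin repeat protein, also turned its direction, with 11.6, 11.8 and 13.4 CPM without and 9.35, 10.1 and 9.92 CPM with CPT in primed cells (log2 fold change -0.32) and 0.50 in unprimed cells. Its unadjusted P in primed cells was 0.037 and reached 0.131 without GTA+5-Aza replicate 3. The remaining 2 genes named from the interaction, the lncRNA ENSG00000273361 and the pseudogene UPF3AP3, had at most 12 counts in any primed library.

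Among the other genes that met the thresholds and had symbols, the 12 with the smallest P in each direction came from varied families. Higher with CPT was NSUN6, a methyltransferase of tRNA, with 60, 95 and 86 counts without and 115, 127 and 120 with CPT (log2 fold change 0.68, unadjusted P = 0.00288). The neuronal adhesion molecule CADM2 had 44, 46 and 35 counts without and 77, 60 and 45 with CPT, and its unadjusted P without CPT+GTA+5-Aza replicate 1 was 0.0767. DPYSL4, a cytoskeletal protein of the collapsin response mediator family, had 7, 6 and 3 counts without and 12, 16 and 27 with CPT, against 26, 50 and 20 in Con and 4, 22 and 12 in CPT. The other higher genes were LONRF1, CCDC121, STOML1, CDRT4, ZNF600, the lncRNAs LINC00896 and LINC03067, and the pseudogene TCEA1P2, which may share reads with its parent gene.

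Lower with CPT was the zinc finger gene ZNF467, with 137, 146 and 142 counts without and 73, 104 and 64 with CPT (log2 fold change -0.73, unadjusted P = 0.00237). The formin FHOD3 had 45, 30 and 40 counts without and 19, 14 and 9 with CPT, and the adhesion receptor ADGRF5 had 27, 29 and 11 without and 3, 7 and 4 with CPT. GJB5, a connexin of gap junctions, had 22, 12 and 19 counts without and 0, 3 and 6 with CPT. The antisense transcripts MAST3-AS1 (79, 56 and 68 counts without, 28, 35 and 24 with CPT) and PRKAG2-AS1 were also lower, but the strand setting of the counting is not given in the sources used here, so they cannot be told apart from genes on the other strand. The remaining lower genes were LRRC56, SLC25A28-DT, STXBP5L, RIMKLA and USH1G, all with at most 32 counts in any primed library. The rule for naming these genes required that the groups did not overlap. A scarce gene can also pass the filter on low counts through the group where it is high, as ZNF600 did through CPT+GTA+5-Aza and GJB5 through GTA+5-Aza.

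The smallest P of all genes belonged to the processed pseudogene ENSG00000224114 (chr1:206695837-206696269, minus strand), which lies outside the rule for named genes and was chosen after its value was seen. It had 157, 79 and 83 counts without and 232, 214 and 190 with CPT (log2 fold change 1.08, adjusted p = 0.542). It may share reads with its parent gene.

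All 34 listed genes of cell division were tested, 18 higher and 16 lower, with log2 fold changes between -0.11 and 0.09, a median of 0.00 and 0 genes with an unadjusted P under 0.05. Of the negative regulators of proliferation 33 of 37 were tested, 17 higher and 16 lower with a median of 0.03. Of the 33, 3 had an unadjusted P under 0.05 (9.09%, against 2.71% of all genes), and all 3 were lower (1.62% of all genes) with CPT, namely the CDK inhibitor CDKN1C (11.7 ± 2.22 CPM without, 9.15 ± 1.39 CPM with CPT, overlapping), the antiproliferative protein TOB1 (31.4 ± 1.56 and 27.0 ± 1.80 CPM, not overlapping) and KLF4.

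KLF4, a transcription factor that restrains division in epithelia, had 5.56, 6.31 and 6.49 CPM without and 2.69, 4.71 and 4.84 CPM with CPT (log2 fold change -0.59, unadjusted P = 0.026). Its value in unprimed cells was the same, -0.59.

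The 34 apoptosis genes tested split into 24 lower and 10 higher (median -0.02), against 49.5% lower over all genes. BMF, a BH3-only activator of cell death, was the 1 with an unadjusted P under 0.05, with 19, 32 and 31 counts without and 12, 13 and 3 with CPT (log2 fold change -1.46, unadjusted P = 0.0109, and 0.0597 without CPT+GTA+5-Aza replicate 3). That 1 gene of 34 is 2.94%, near the 2.71% of all genes. APAF1, the scaffold of the apoptosome, had 54.0 ± 2.93 CPM without and 48.4 ± 2.56 CPM with CPT (unadjusted P = 0.0916). FAS had 1.22 ± 0.193 and 0.759 ± 0.139 CPM, with no overlap and an unadjusted P of 0.258.

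Negative regulators of migration gave 0 genes with an unadjusted P under 0.05 among 20 tested, where 2.71% of all genes had one, with 12 higher and 8 lower and a median of 0.03. The tetraspanins CD9 (189 ± 7.06 CPM without, 203 ± 4.65 CPM with CPT) and CD82 (4.39 ± 0.538 and 5.62 ± 0.842 CPM) had log2 fold changes of 0.10 and 0.36. SRGAP1, a GTPase-activating protein downstream of SLIT and ROBO, had one of -0.12.

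The 27 EMT genes tested split into 13 higher and 14 lower (median -0.01). The list mixes epithelial genes such as EPCAM and CLDN4 with mesenchymal ones, so this split gives no direction of EMT. The Notch ligand JAG1 (350 ± 11.2 CPM without, 324 ± 3.06 CPM with CPT) and the tight junction protein CLDN4 had an unadjusted P under 0.05, both lower. These were 7.41% of the 27, against 2.71% of all genes. In the homophilic adhesion list, 30 of 95 genes were tested, 11 higher and 19 lower with a median of -0.08. PCDH1 was the protocadherin with an unadjusted P under 0.05, at 47.3 ± 2.28 CPM without and 41.2 ± 2.78 CPM with CPT (log2 fold change -0.20). It was 1 of the 30 (3.33%), against the same 2.71%.

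Of the interferon-stimulated genes 39 were tested, 17 higher and 22 lower with a median of -0.03. DTX3L, a ubiquitin ligase (42.5, 39.2 and 35.1 CPM without, 31.9, 32.1 and 34.1 CPM with CPT), and IFIT1, an RNA-binding antiviral protein (29.4, 31.9 and 28.2 CPM without, 26.9, 23.1 and 25.0 CPM with CPT), were lower with an unadjusted P under 0.05. These 2 were 5.13% of the 39, against 2.71% of all genes. Metallothioneins and zinc response genes had 9 tested members, 5 higher and 4 lower with a median of 0.01 and 0 with an unadjusted P under 0.05.

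Of the ATF4 targets, which supply amino acids and chaperones under stress, 22 were tested, with 15 higher and 7 lower (median 0.09), against 50.5% higher and a median of 0.00 over all genes, and their summed level was 2120 to 2170 CPM in GTA+5-Aza and 2200 to 2310 CPM in CPT+GTA+5-Aza, with no overlap. SLC7A5, a transporter of large neutral amino acids (320 ± 29.4 CPM without, 352 ± 12.8 CPM with CPT, overlapping libraries), and ATF5 (104 ± 8.0 and 115 ± 2.61 CPM, no overlap) had an unadjusted P under 0.05. These 2 were 9.09% of the 22, against 2.71% of all genes. Without GTA+5-Aza replicate 2 the unadjusted P was 0.271 for SLC7A5 and 0.26 for ATF5. ATF4 itself had 118 ± 5.19 and 130 ± 3.48 CPM (log2 fold change 0.14, unadjusted P = 0.102).

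The immediate early and KLF genes tested numbered 31, with 23 higher and 8 lower (median 0.09), against the same 50.5% higher over all genes. Of the 31, 2 had an unadjusted P under 0.05 (6.45%, against 2.71% of all genes), 1 higher and 1 lower. The higher one was KLF2 (105 ± 17.9 CPM without, 120 ± 10.3 CPM with CPT, log2 fold change 0.20, overlapping libraries). The lower one was KLF4, described above (log2 fold change -0.59, no overlap), the 1 member of this list that met both thresholds. EGR1 (25.1 ± 4.16 and 30.1 ± 1.33 CPM, unadjusted P = 0.0532) and the matricellular protein CCN1 (log2 fold change 0.15, unadjusted P = 0.0566) came close to a P of 0.05.

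Among the fibroblast and stellate markers, which served as a check for other cells, the collagens COL3A1 (118 ± 6.30 CPM without, 102 ± 4.32 CPM with CPT, unadjusted P = 0.00888) and COL1A2 (897 ± 39.8 CPM without, 829 ± 13.6 CPM with CPT, unadjusted P = 0.0316) were lower. Of this list of 8, 4 were tested, 1 higher and 3 lower. The 2 collagens were 50.0% of the 4, against 2.71% of all genes with an unadjusted P under 0.05. The summed level was 989 to 1070 CPM in GTA+5-Aza and 917 to 944 CPM in CPT+GTA+5-Aza. DCN had 0 counts in all primed libraries but 1 count in CPT+GTA+5-Aza replicate 3.

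All 15 list members with an unadjusted P under 0.05 had a P of 0.05 or more with at least 1 library left out. The highest of these P values ran from 0.0573 for COL3A1, without GTA+5-Aza replicate 3, to 0.303 for CDKN1C, also without GTA+5-Aza replicate 3. Leaving out CPT+GTA+5-Aza replicate 2 took 11 of the 15 past 0.05, GTA+5-Aza replicates 2 and 3 took 9 each, CPT+GTA+5-Aza replicate 1 took 8, CPT+GTA+5-Aza replicate 3 took 7 and GTA+5-Aza replicate 1 took 5.

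**Figure D5:**
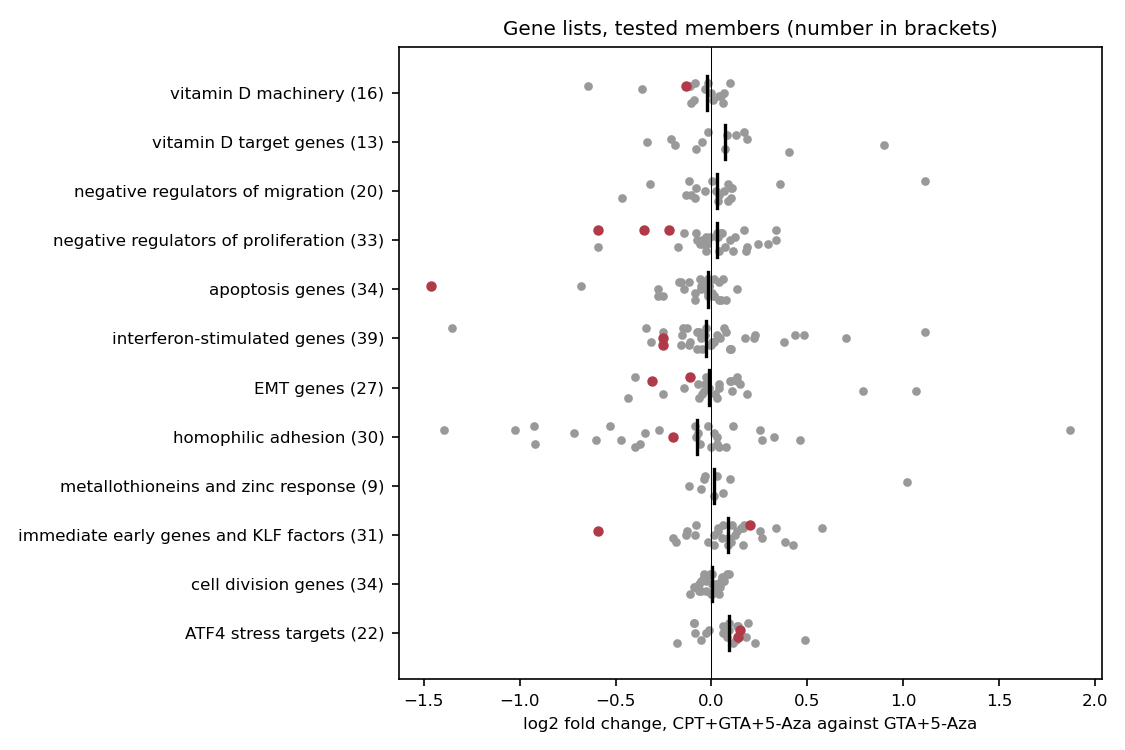
Log2 fold changes of CPT+GTA+5-Aza over GTA+5-Aza for the tested members of 12 gene lists, 1 point a gene, with the median of each list as a vertical bar and genes with an unadjusted P under 0.05 in red. The medians lie between -0.08 and 0.09, the cell division genes are packed between -0.11 and 0.09, and the widest scatter is in lists with scarce members such as homophilic adhesion.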

How the data were processed

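Reads (150 bp, paired-end) were trimmed by the authors with Trim Galore. HISAT2 2.2.1, as named in the submitters' processing notes, placed them on GRCh38, and HTSeq gave the deposited files, which hold whole-number counts for each gene with no normalization. Neither the annotation release nor the strand setting is given in the sources used here. Symbols and coordinates came from GENCODE v44, which lacks 11496 of the 63677 identifiers, and these were tested by identifier. Rows that name no gene held 0.0% of the counts.

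The analysis used edgeR 4.0.16 under R 4.3.3. All 12 libraries entered 1 fit (filterByExpr on the 4 groups, TMM scaling, glmQLFit, glmQLFTest, common dispersion 0.0101), which kept 17123 genes, and p-values were adjusted by the Benjamini-Hochberg method over all of them. Fold changes are log2 ratios from this fit with 95% intervals, and CPM values use TMM-scaled library sizes. Total counts per library ran from 16162490 to 21224665, and the limits set by a count of 0 (3 counts) cover counting error only. The script was tested on simulated counts. Replicate pairs differed by 3.99 to 18.1 times the sampling noise (chi-square per degree of freedom), so none was counted as a copy of another, which does not show that they came from separate cultures.

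Named genes were VDR, RXRA, CYP24A1, MT1G and RAC2. Added to these were the 12 genes in each direction with the smallest P among those with symbols, a fold change above 1.5, P under 0.05 and no overlap, the 6 in each direction with the smallest P above 10 CPM, the 5 with the smallest P in the interaction, and members of 12 gene lists and 6 cell type lists with P under 0.05. The result of 1 further list is not reported here. The genes and lists were chosen with earlier results of these data known. Promoter sequences were RefSeq's, found for 34 of the 59 named genes. Alternatives were the likelihood ratio test, DESeq2 1.42.0, glmTreat, other scalings and filters, the 2 groups alone, the replicate number as a block and leaving out each library.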

Additional observations from a re-analysis of the deposited data

How the results depend on the processing

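At the fold and P thresholds, CPT in primed cells gave 172 genes (59 higher, 113 lower). The likelihood ratio test gave 277 (104 higher, 173 lower) with 3 genes after adjustment, glmTreat against a fold change of 1.5 gave 64 (20 higher, 44 lower), no filter on low counts gave 512 (223 higher, 289 lower) with 4 after adjustment, and a mean CPM of at least 1 left 39 higher. DESeq2 had 1 gene and the fit of the 2 groups alone 2 genes after adjustment. Leaving out 1 library gave 184 to 258 genes, with 54 to 100 higher (100 without GTA+5-Aza replicate 3) and 108 to 171 lower (171 without CPT+GTA+5-Aza replicate 1), and 0 to 1 after adjustment (ENSG00000224114, adjusted p = 0.00589 without GTA+5-Aza replicate 1). For the interaction, the likelihood ratio test had 3 genes after adjustment, glmTreat gave 140 (71 higher, 69 lower), no filter gave 811 (417 higher, 394 lower) with 11 after adjustment, and a mean CPM of at least 1 gave 201 (103 higher). Leaving out 1 library gave 289 to 463 for it (463 without CPT replicate 2), with 141 to 293 higher and 141 to 191 lower, and 0 after adjustment. No filter raises the number of genes tested from 17123 to 32000 and the CPM filter lowers it to 14660. For the other settings the cause was not tested.

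The genes past adjustment under these settings were ENSG00000224114 (adjusted p = 0.0395 with DESeq2), SMN1 (adjusted p = 0.0195 with the 2 groups alone), ENSG00000258486, ENSG00000261096 and ENSG00000273361. Under the other scalings in edgeR the median of all genes lay between -0.0066 and 0.0036. The replicate numbers did not pair the libraries, since same-numbered libraries had correlations of 0.00, -0.17 and 0.01. With the replicate number as a block, 164 genes met the thresholds (57 higher, 107 lower), 289 did in the interaction, and 0 passed adjustment. Of 922 values of named genes under alternatives, 0 changed direction, 804 kept their side of the P threshold, 113 lost it (35 with glmTreat, 65 with a library left out) and 5 gained it. Of the 55 named genes past that threshold, 30 stayed past it without each library. Below 1 CPM the 95% interval of a gene of median standard error reached a fold change of 2.57 to each side.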
